A study of Mus musculus with 2 samples.

Results

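Nkx6-1, Nkx6-2, Nkx2-2 and Nkx2-9 encode homeodomain transcription factors of the ventral neural tube, and the chromatin around them was examined in cells sorted for an Olig2 reporter. An interval of open chromatin was assigned to one of these genes when its nearest protein-coding transcription start site (TSS) was that of the gene. By this rule 64 of 119502 intervals were assigned, 31 to Nkx6-1, 16 to Nkx6-2, 9 to Nkx2-2 and 8 to Nkx2-9. Assignment by distance does not show that an interval acts on the gene.

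In the ventral neural tube, Sonic hedgehog (Shh) from the notochord and floor plate sets up progenitor domains through repressor proteins that switch each other off. NKX6.1 is induced by Shh in the p2, motor neuron (pMN) and p3 progenitors, where it represses genes of more dorsal identity and permits Olig2 expression, while its relative NKX6.2 is found in mouse mainly in the p1 progenitors. NKX2.2 and NKX2.9 mark the p3 domain next to the floor plate and repress the pMN programme, and OLIG2 in turn represses Nkx2-2. Many of these factors recruit Groucho (TLE) co-repressors.

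The assay was ATAC-seq, which uses the Tn5 transposase to cut open chromatin and insert adapters. The cells came from mouse embryonic stem cells of the Olig2-mKate2 line, in which the red fluorescent protein mKate2 is linked to Olig2 by a 2A peptide. They were treated with 100 nM SAG, a Smoothened agonist that activates the Shh pathway, together with 100 nM retinoic acid, and live mKate2-positive cells were sorted at day 5. Each transposition used 50000 cells, and the labels gave 1 group of 2 replicates, with no statement that these came from separate differentiations. All cells carried the same reporter, the sort selected for it, and the labels do not say whether the line was 1 clone. As the study points out, a reporter sort of this kind also takes in young motor neurons and a number of cells with both OLIG2 and NKX2.2, whose share of the signal at Nkx2-2 and Nkx2-9 was not tested. No second condition was available, so each level below is a mean with its SD over 2 libraries, and no comparison between conditions was made. In a bulk library, a site open in few cells and a site less often open in every cell cannot be told apart.

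The libraries held 31876165 and 31672240 counts in intervals, with a median of 65 and 66 per interval. Of the promoters examined to check the sort, all 6 pMN and neural progenitor genes had an interval at the TSS, between 187 normalised counts per kb at Pax6 and 1498 at Sox1. Of the p3 and floor plate genes Nkx2-2 and Nkx2-9 themselves did, while Foxa2 had one only at its coding start, with 584. Nkx6-1 is likewise among the 6 above, so that the check is not independent of the genes described. Of the motor neuron genes 3 of 4 had one, up to 1087 at Isl1, while Chat had none. Feeder fibroblast promoters had an interval in 3 of 4 cases, from 123 at Col1a2 to 459 at Twist1, with none at Col1a1. Among pluripotency genes only Zfp42 had one, with 237, and Pou5f1 and Nanog had none. Of all coding genes 61.5% had an interval at the TSS, so that 3 of 4 in a list does not tell these cell types apart. The part that any residual cells of these kinds had in the values below was not tested. An open promoter is not a measure of expression.

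The sequences of the most accessible distal element of each gene, the central 300 bases of the interval, are shown first. Each interval exceeded the promoter of its gene in mean density per kb, but not everywhere in counts per interval, as given below. Each was picked as the densest distal interval of its gene, which favours this outcome. The share of all genes where the densest distal interval exceeds the promoter was not computed. The sequences are given 5′ to 3′ on the plus strand of mm10, read from the reference assembly. Capitals mark matches, on either strand, to 1 of 7 short motifs: GGGTGGTC (GLI, the Shh effectors), CACTTNA (NK2 class, as NKX2.2), TTAATTA (homeodomains such as NKX6), CATTGT (SOX), TGTTTAC (FOX), and the E-boxes CATATG and CAGCTG, which OLIG2 and other basic helix-loop-helix factors can bind. A match is a string of letters and not a binding site.
Nkx6-1 distal element, chr5:101521099-101521398: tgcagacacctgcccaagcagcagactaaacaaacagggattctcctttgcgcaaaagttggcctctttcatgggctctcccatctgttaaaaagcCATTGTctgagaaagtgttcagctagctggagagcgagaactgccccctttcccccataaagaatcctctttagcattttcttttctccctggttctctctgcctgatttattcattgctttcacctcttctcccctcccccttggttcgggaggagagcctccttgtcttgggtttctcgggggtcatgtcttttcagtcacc
Nkx6-2 distal element, chr7:139528634-139528933: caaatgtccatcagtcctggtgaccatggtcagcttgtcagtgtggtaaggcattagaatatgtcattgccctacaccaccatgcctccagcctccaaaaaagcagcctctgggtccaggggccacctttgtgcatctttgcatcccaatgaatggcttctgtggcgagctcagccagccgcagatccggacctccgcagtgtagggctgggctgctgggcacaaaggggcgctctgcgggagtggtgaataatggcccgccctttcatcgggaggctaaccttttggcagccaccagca
Nkx2-2 intronic element, chr2:147180838-147181137: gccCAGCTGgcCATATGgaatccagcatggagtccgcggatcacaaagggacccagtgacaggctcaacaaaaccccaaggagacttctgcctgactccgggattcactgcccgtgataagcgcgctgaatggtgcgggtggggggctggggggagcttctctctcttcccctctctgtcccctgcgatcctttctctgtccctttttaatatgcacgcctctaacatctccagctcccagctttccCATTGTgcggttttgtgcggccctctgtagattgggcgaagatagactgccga
Nkx2-9 distal element, chr12:56621294-56621593: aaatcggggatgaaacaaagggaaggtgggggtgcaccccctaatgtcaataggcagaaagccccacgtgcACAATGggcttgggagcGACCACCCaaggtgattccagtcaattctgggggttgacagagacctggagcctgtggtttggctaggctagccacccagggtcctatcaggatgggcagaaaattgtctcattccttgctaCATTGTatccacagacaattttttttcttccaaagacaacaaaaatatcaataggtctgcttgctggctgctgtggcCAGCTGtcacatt

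The Nkx2-9 element held the GLI motif, CATTGT at 2 places and CAGCTG. The Nkx2-2 element held CATTGT and both E-boxes, the Nkx6-1 element held CATTGT alone, and the Nkx6-2 element had none of the 7 motifs in this window. Their GC contents were 50.0% (Nkx2-9), 57.3% (Nkx2-2), 49.7% (Nkx6-1) and 57.3% (Nkx6-2).

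The 250 bases before the start of each gene are shown next, so that promoters and distal elements can be set side by side. All 4 genes lie on the minus strand, and the sequences are given 5′ to 3′ on that strand. They end at the GENCODE start, which for Nkx2-2 is that of its coding transcripts.
Nkx6-1 promoter, chr5:101664997-101665246: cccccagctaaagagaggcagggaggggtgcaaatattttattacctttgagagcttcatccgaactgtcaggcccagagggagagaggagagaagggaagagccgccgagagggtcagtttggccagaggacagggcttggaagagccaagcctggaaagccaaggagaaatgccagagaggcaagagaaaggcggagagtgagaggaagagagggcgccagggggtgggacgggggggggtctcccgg
Nkx6-2 promoter, chr7:139582798-139583047: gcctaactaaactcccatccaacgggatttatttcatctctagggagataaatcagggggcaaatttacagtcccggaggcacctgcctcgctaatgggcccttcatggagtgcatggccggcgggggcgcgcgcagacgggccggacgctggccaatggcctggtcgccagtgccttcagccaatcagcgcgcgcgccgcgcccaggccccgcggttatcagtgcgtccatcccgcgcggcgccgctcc
Nkx2-2 promoter, chr2:147186405-147186654: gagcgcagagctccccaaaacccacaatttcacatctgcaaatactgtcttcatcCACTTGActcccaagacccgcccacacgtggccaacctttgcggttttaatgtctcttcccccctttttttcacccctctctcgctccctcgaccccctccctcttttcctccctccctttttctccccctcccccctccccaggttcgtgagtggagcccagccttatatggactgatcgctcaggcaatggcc
Nkx2-9 promoter, chr12:56613285-56613534: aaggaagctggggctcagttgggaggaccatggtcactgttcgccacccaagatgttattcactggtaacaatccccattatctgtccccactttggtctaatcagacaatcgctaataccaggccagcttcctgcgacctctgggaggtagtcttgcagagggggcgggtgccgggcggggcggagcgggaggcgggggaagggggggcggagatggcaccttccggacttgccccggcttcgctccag

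The 4 promoter stretches were GC-rich, with 59.6% for Nkx6-1, 65.2% for Nkx6-2, 56.4% for Nkx2-2 and 61.6% for Nkx2-9, against a median of 52.4% over 32851 RefSeq promoters. The RefSeq start of Nkx6-1 lies 285 bases downstream of the GENCODE start, so that the stretch printed for this gene is not its RefSeq promoter. Of the 7 motifs only CACTTNA was found, in the Nkx2-2 promoter. This motif occurred in 10.1% of all RefSeq promoters over the same length. The GLI motif occurred in 0.703% of them and in none of the 4.

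Promoter accessibility was taken as the density of the intervals that overlap the TSS of the gene record, in size-factor normalised counts per kb. Nkx6-1 was the most accessible of the 4. Its TSS interval, chr5:101664146-101665804, had 1471 in replicate 1 and 1433 in replicate 2, a mean of 1452 ± 27.3 (SD, n = 2). This lay above 88.0% of 21951 protein-coding genes, of which those without a TSS interval counted as 0.

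Nkx2-9 followed, with 951 and 932 over chr12:56611809-56615040 and a mean of 942 ± 13.2 (SD, n = 2), at the 71.7th percentile. Nkx6-2 had 676 and 635 over chr7:139580909-139583162, a mean of 656 ± 28.6 (SD, n = 2), at the 59.8th percentile. The median was 884 over genes with counts at their TSS, so that Nkx6-1 and Nkx2-9 lay above it and Nkx6-2 below. Ranked among those genes alone, Nkx6-1 was at the 80.5th percentile, Nkx2-9 at the 54.0th, Nkx6-2 at the 34.6th and the Nkx2-2 gene record at the 23.7th.

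Nkx2-2 depends on which start is taken. Its gene record begins at a noncoding transcript, 7.84 kb upstream of the coding transcripts, and the interval there, chr2:147193377-147195662, had 491 and 477, a mean of 484 ± 9.56 (SD, n = 2). The interval over the coding start, chr2:147185761-147188853, had 899 and 860, a mean of 879 ± 27.5 (SD, n = 2). Among all coding genes the percentile was 53.1 by the gene record and 67.8 by the coding start. Both intervals also overlap the antisense transcript Nkx2-2os, and the second also overlaps 6430503K07Rik, so that openness at these genes cannot be separated from that at Nkx2-2.

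**Figure D1:**
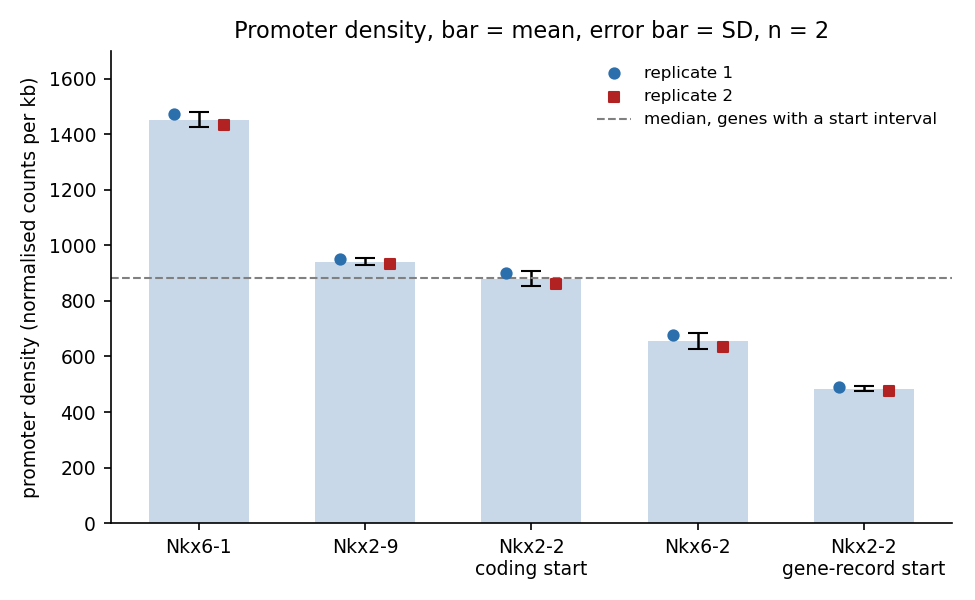
Promoter density in normalised counts per kb for each gene, with Nkx2-2 at both of its starts. Points are the 2 libraries, bars the mean and error bars the SD, and the dashed line is the median of genes with counts at their TSS, 884. The points of the 5 promoters do not overlap with those of their neighbours in the order.

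The order of the promoters, Nkx6-1, Nkx2-9, Nkx2-2 (coding start), Nkx6-2 and Nkx2-2 (gene record), was the same in both libraries. Nkx6-1 exceeded Nkx2-9 by 511 ± 14.0 (SD, n = 2), a ratio of 1.54. The narrowest step was from Nkx2-9 to the Nkx2-2 coding start, 52.0 in replicate 1 and 72.2 in replicate 2, a ratio of 1.07. The coding start of Nkx2-2 exceeded Nkx6-2 by 224 ± 1.13 (SD, n = 2), and Nkx6-2 exceeded the Nkx2-2 gene record by 172 ± 19.1 (SD, n = 2). Each of these steps was larger than its SD, but the promoters were measured in the same 2 libraries, and an exact sign-flip permutation test of 2 pairs cannot go below p = 0.5.

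The TSS intervals were long, and this bears on the order. They measured 1659 bp (Nkx6-1), 2254 bp (Nkx6-2), 2286 bp (Nkx2-2) and 3232 bp (Nkx2-9), against a median of 1229 bp over all TSS intervals. The Nkx2-9 interval was longer than 98.5% of them. Counted per interval and not per kb, Nkx2-9 had 3043 ± 42.8 normalised counts and Nkx6-1 had 2409 ± 45.2 (SD, n = 2 each), with the Nkx2-2 coding start between them at 2720 ± 85.0 (SD, n = 2). By this count the interval of the densest distal element was below the TSS interval at Nkx6-1 (1416) and Nkx2-9 (1035). At Nkx6-2 it was above, with 2157 against 1478. At Nkx2-2 it had 1495, above the 1106 of the gene record and below the coding start. The GC content of the TSS intervals ranged from 56.6% at Nkx2-9 to 65.0% at Nkx6-1, around the median of 60.2%.

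The loci also differed in the number of intervals outside their promoters. Intervals that overlap no annotated transcript start of a protein-coding gene are called distal here, and 58 of the 64 were distal: 30 at Nkx6-1, 14 at Nkx6-2 and 7 each at Nkx2-2 and Nkx2-9. Of the 64, 36 were intergenic, 18 intronic, 2 in coding exons and 2 in exons of noncoding transcripts. The remaining 6 were the 4 TSS intervals, the Nkx2-2 coding start and the start of a retained-intron transcript of Cfap46 near Nkx6-2.

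**Figure D2:**
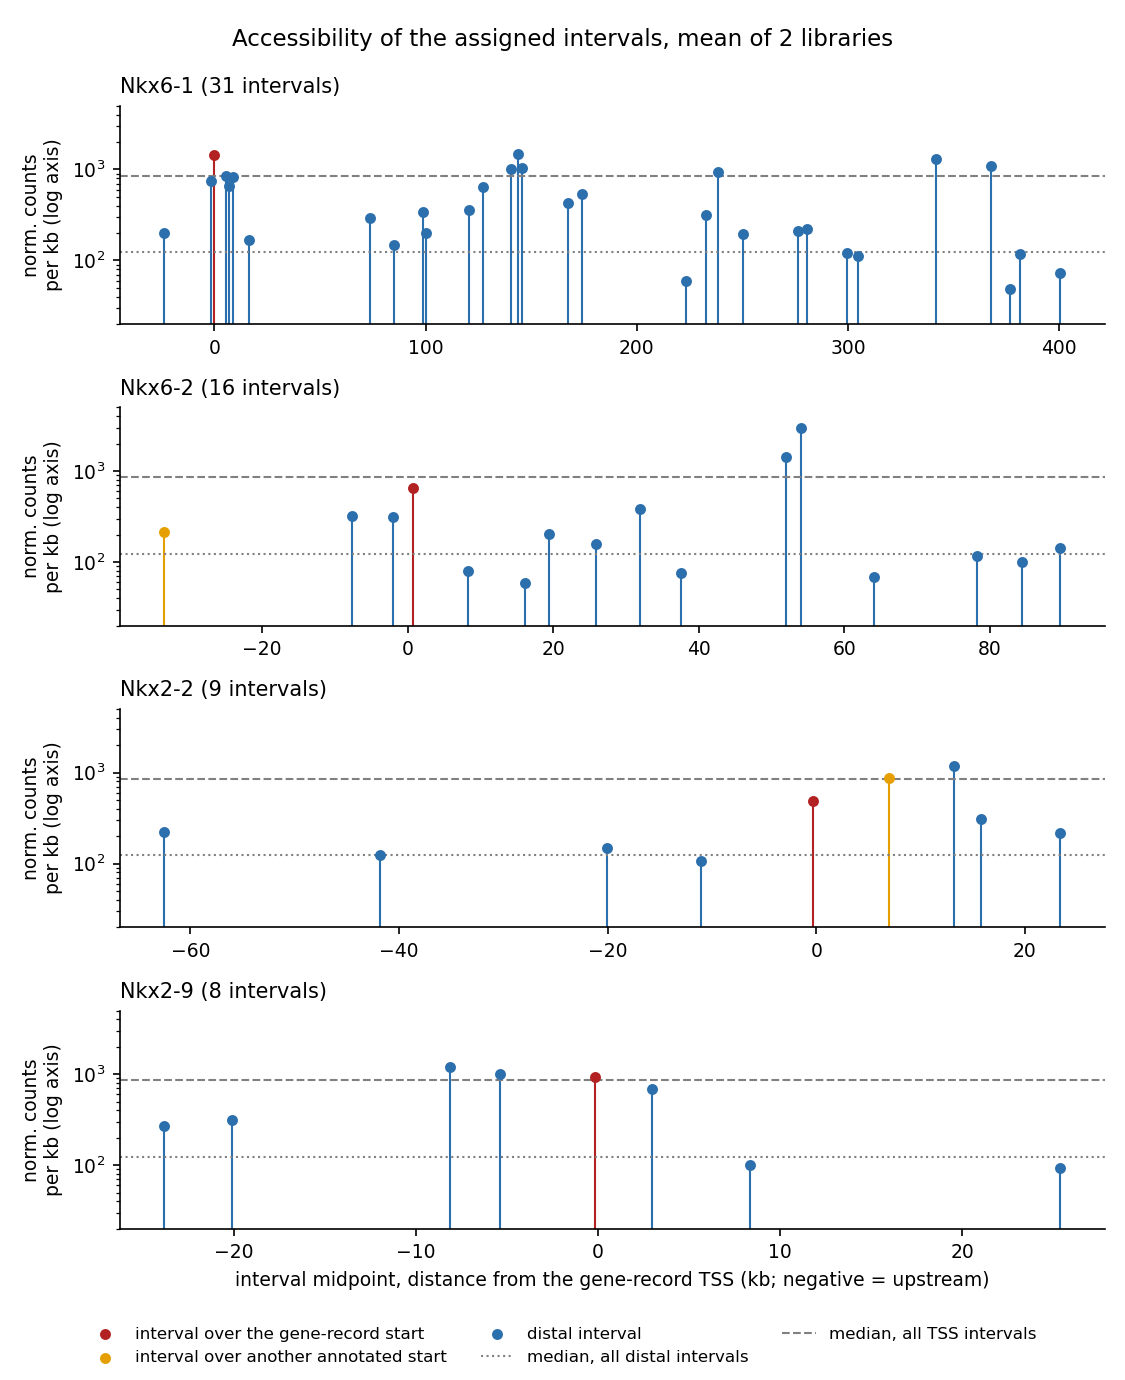
Mean density of each assigned interval, in normalised counts per kb on a log axis, against the distance of its midpoint from the gene-record TSS in kb, with negative values upstream. Red marks the TSS interval, orange an interval over another annotated start and blue distal intervals, with dotted and dashed lines at the medians of all distal (123) and all TSS intervals (853). At each of the 4 loci at least 1 distal interval lies above the red point in density per kb. The share of all genes where this holds was not computed.

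Distal intervals of the 4 genes were on the whole more accessible than distal intervals elsewhere, as a description without a test. Their median density, taken over the means of the 2 libraries, was 246 normalised counts per kb, against 123 over all 103268 distal intervals. By library the median of the member intervals was 267 and 241 (SD 18.2, n = 2). The median of all distal intervals was exceeded by 43 of the 58. A mean normalised count over 100 was reached by 38 of the 58 (65.5%), where 30.8% of all distal intervals reached it. Including promoters, 44 of the 64 reached it, against 38.8% of all intervals. The member intervals were also longer, with a median of 662 bp against 459 bp.

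Of the 58, 11 (19.0%) were denser than the median TSS interval, 853, which held for 2.65% of all distal intervals. Of these 58, 4 were within the top 1% of distal intervals. The share over 100 was above the background in each of 3 ranges of distance. Within 10 kb of the TSS, 10 of 11 had a mean over 100, against 39.4% of all distal intervals at that distance. Between 10 and 100 kb 15 of 26 did (57.7% against 30.0%), and beyond 100 kb 13 of 21 did, all at Nkx6-1 (61.9% against 28.4%).

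**Figure D3:**
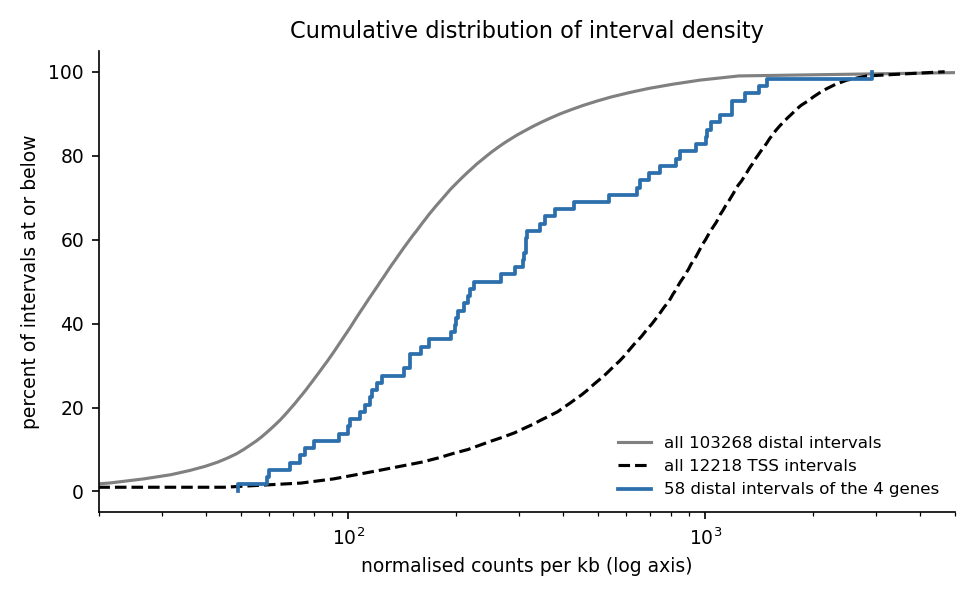
Percent of intervals at or below each density, in normalised counts per kb on a log axis, for the 58 distal intervals of the 4 genes (blue), all 103268 distal intervals (grey) and all 12218 TSS intervals (dashed). The blue curve lies between the others, with medians of 246, 123 and 853.

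Nkx6-1 had the most extended landscape. Its 31 intervals were more than at 97.9% of genes, where the median was 3, and they lay within a territory of 460 kb in which Nkx6-1 was the nearest gene. The next coding gene downstream, Gpat3, starts 819 kb away, and Cds1 on the other side starts 100 kb away. Per 100 kb of territory there were 6.74 intervals, close to the median of 5.70 over genes, so that the number of intervals went with the size of the territory.

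Of its 30 distal intervals, 28 lay downstream of the TSS, that is beyond the 3′ end or in the gene. The densest was an intergenic interval 143 kb downstream, chr5:101520773-101521724, whose central sequence is given above. It had 1405 counts in replicate 1 and 1427 in replicate 2, a density of 1487 ± 15.5 (SD, n = 2), and ranked 594 of 103268 distal intervals. The Nkx6-1 promoter was below it by a narrow margin, with 1471 against 1476 normalised counts per kb in replicate 1 and 1433 against 1498 in replicate 2.

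Next came chr5:101322764-101323866, 341 kb downstream, with 1404 and 1441 counts and a density of 1290 ± 23.0 (SD, n = 2). The third, chr5:101296893-101298099, lay 367 kb downstream and had 1338 and 1320 counts, a density of 1101 ± 11.2 (SD, n = 2). Both were denser than the median TSS interval while lying over 300 kb from the gene. The farthest assigned interval, chr5:101264419-101264793 at 400 kb, was weak, with 27 and 28 counts and a density of 73.3 ± 1.84 (SD, n = 2).

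Beside the densest interval stood 2 more of high density, picked out here because of their values. The 3 lay within 6.18 kb, between 141 and 146 kb downstream, and had densities of 1005 to 1487. Together they held 3605 and 3690 normalised counts in the 2 libraries, 22.6% ± 0.518 of the counts of the locus (SD, n = 2) and more than the 2409 of the promoter. Across the locus, 6 distal intervals had over 900 normalised counts per kb, and they held 47.9% ± 0.881 of its counts (SD, n = 2).

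Close to the gene, all 4 distal intervals within 10 kb had a mean over 100, with a median density of 788. One of them, chr5:101659417-101659867, overlapped a coding exon of Nkx6-1 and had 393 and 374 counts, a density of 850 ± 30.3 (SD, n = 2). It was singled out after its values were seen. All 5 between 10 and 100 kb also had a mean over 100, but at a median density of 198.

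Nkx6-2 had 16 intervals in a territory of 147 kb, or 10.9 per 100 kb. Downstream of it lies Inpp5a, an inositol polyphosphate phosphatase gene whose own TSS is 194 kb away, and all 12 distal intervals on that side overlapped Inpp5a, 11 in introns and 1 in an exon of a noncoding transcript. The densest distal interval of the whole set was among them, chr7:139528416-139529150, 53.6 kb downstream of Nkx6-2 in an Inpp5a intron. It had 2091 and 2224 counts and a density of 2935 ± 126 (SD, n = 2), which ranked 31 of 103268 distal intervals. The interval contained 0% of repeat-masked sequence.

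A second strong interval lay close by, chr7:139530337-139531305, with 1321 and 1425 counts and a density of 1417 ± 75.1 (SD, n = 2). The pair spanned 2.89 kb and held 51.7% ± 1.24 of the counts of the locus (SD, n = 2), where the promoter held 21.7% ± 1.44. The third, chr7:139549810-139551992, had 773 and 885 counts and a density of 380 ± 36.1 (SD, n = 2). The other Inpp5a intervals were weak: of the 12, 5 had a mean over 100, and the lowest had a density of 59.3.

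The farthest, chr7:139492935-139493395 at 89.4 kb, had 68 and 64 counts and a density of 143 ± 6.22 (SD, n = 2). The promoter of Inpp5a itself, a flanking gene, was highly accessible at 1986 ± 89.1 (SD, n = 2), above the 656 of Nkx6-2. With every annotated transcript start in place of the gene record, internal Inpp5a transcripts were nearer to the strong intervals, and the intervals assigned to Nkx6-2 dropped from 16 to 7, and their summed counts from 6825 to 2073. By the interval midpoint 16 intervals were assigned to Nkx6-2, and by the starts of protein-coding transcripts 15, with a sum of 6664. Whether the strong intervals act on Nkx6-2, Inpp5a or another gene was not tested.

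Nkx2-2 had 9 intervals in 138 kb, with Nkx2-4 and Pax1 as the flanking genes. The intervals over its starts held 63.0% ± 0.828 of the counts of the locus (SD, n = 2), of which the gene-record interval had 1121 and 1091 counts and the coding-start interval 2779 and 2661. The densest distal interval, chr2:147180357-147181617, lay in an intron of Nkx2-2, 12.6 kb downstream of the gene-record TSS. It had 1478 and 1512 counts and a density of 1186 ± 18.4 (SD, n = 2), above both starts of the gene in both libraries.

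The next, chr2:147177818-147179056, overlapped a coding exon and had 392 and 376 counts, a density of 310 ± 9.31 (SD, n = 2). The third was also the farthest, chr2:147256489-147257009, 62.2 kb upstream in an intron of Nkx2-2os, with 116 and 118 counts and a density of 225 ± 2.58 (SD, n = 2). All 4 upstream intervals lay within Nkx2-2os, and this was the only one of them with a mean over 100.

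Nkx2-9 was the most compact locus, with 8 intervals in 77.4 kb, the farthest 25.1 kb from the TSS. Its promoter held 59.7% ± 0.241 of the counts (SD, n = 2). The densest distal interval, chr12:56621009-56621878, lay 7.73 kb upstream and had 1043 and 1027 counts, a density of 1190 ± 13.7 (SD, n = 2), above the 942 of the promoter in both libraries. A short one, chr12:56618562-56618799, 5.28 kb upstream, had 227 and 256 counts and a density of 1015 ± 85.6 (SD, n = 2).

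Downstream, chr12:56610198-56610451, in an exon of the noncoding Gm38103, had 166 and 187 counts and a density of 695 ± 58.1 (SD, n = 2). The farthest interval, chr12:56587574-56588231, was weak, with 57 and 67 counts and a density of 94.2 ± 10.7 (SD, n = 2). The 4 upstream intervals all had a mean over 100 and held 33.4% ± 0.129 of the counts of the locus (SD, n = 2). The gene is flanked by Nkx2-1 at 76.4 kb and Pax9 at 78.5 kb, and Nkx2-2 by Nkx2-4 and Pax1, so that each lies between another Nkx2 gene and a Pax gene. The promoters of these neighbours had 302 ± 9.73 (Nkx2-4), 426 ± 39.1 (Pax1) and 400 ± 13.9 (Pax9; SD, n = 2 each), below the gene-record promoters of Nkx2-2 and Nkx2-9. Nkx2-1 had no interval at its gene-record TSS and 316 ± 10.3 (SD, n = 2) at its coding start, and Pax9 had 615 ± 17.4 (SD, n = 2) at its own, above the gene-record start of Nkx2-2.

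Summed over all assigned intervals, the Nkx6-1 locus had 16225 normalised counts in replicate 1 and 16077 in replicate 2, a mean of 16151 ± 104 (SD, n = 2), above 99.9% of genes. Nkx6-2 had 6825 ± 157, Nkx2-2 had 6074 ± 89.8 and Nkx2-9 had 5093 ± 51.0 (SD, n = 2 each), at percentiles of 98.0, 97.2 and 95.8. Neighbours in this order differed by more than their SDs. The promoter made up 14.9% ± 0.184 of the sum at Nkx6-1 (SD, n = 2) and 59.7% at Nkx2-9, each by the gene-record TSS. With every annotated transcript start, the start intervals made up 71.3% at Nkx6-2 and 63.0% at Nkx2-2. The order of the sums was thus not that of the promoters, and Nkx6-2 came second by sum and behind Nkx2-9 by promoter density. The second place depends on the assignment, since with every transcript start Nkx6-2 had the lowest sum of the 4, 2073.

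**Figure D4:**
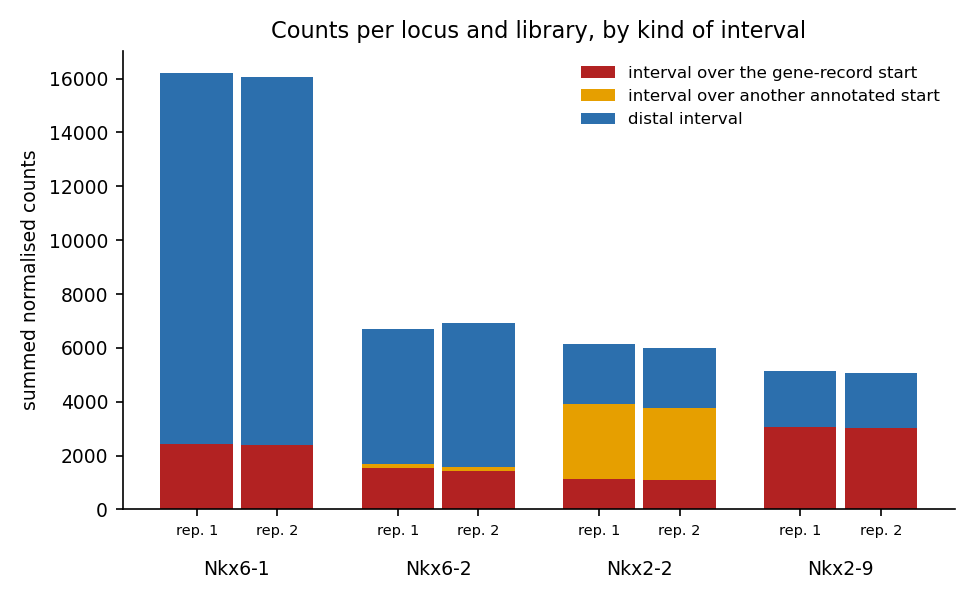
Summed normalised counts of each locus in each library, split into the interval over the gene-record TSS (red), intervals over another annotated start (orange) and distal intervals (blue). Nkx6-1 has the tallest bars, with 16225 and 16077, and Nkx2-9 the largest red share by the gene-record TSS, 59.7%.

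The libraries were then compared at the 64 intervals. A two-sided exact binomial test per interval, with Benjamini-Hochberg adjustment over 119480 intervals with counts, called 0 of the 64 different at an adjusted p under 0.01, where 0% of all intervals were called. Without adjustment, 3 of the 64 (4.69%) and 10029 of all intervals (8.39%) had p under 0.05. With edgeR TMM factors 6 of all intervals were called, 0 of them among the 64. This compares one library with the other, since there was no second condition.

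The smallest p was 0.0064 (adjusted p = 0.373, exact binomial test), at the Nkx6-2 interval with 773 and 885 counts, a log2 ratio of 0.19. Among intervals with a mean over 100, the largest ratio at each gene was -0.18 at Nkx6-1 (chr5:101666597-101666974, 301 and 265 counts), -0.29 at Nkx6-2 (chr7:139584656-139585014, 122 and 100), -0.06 at the Nkx2-2 coding start and -0.17 at Nkx2-9 (chr12:56636694-56637534, 239 and 212). Over the 44 member intervals above 100, the SD of the log2 ratio was 0.11, against 0.14 over all such intervals. Only 2 of the 64 differed over 1.5-fold, and the weaker of them had 19 and 8 counts.

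**Figure D5:**
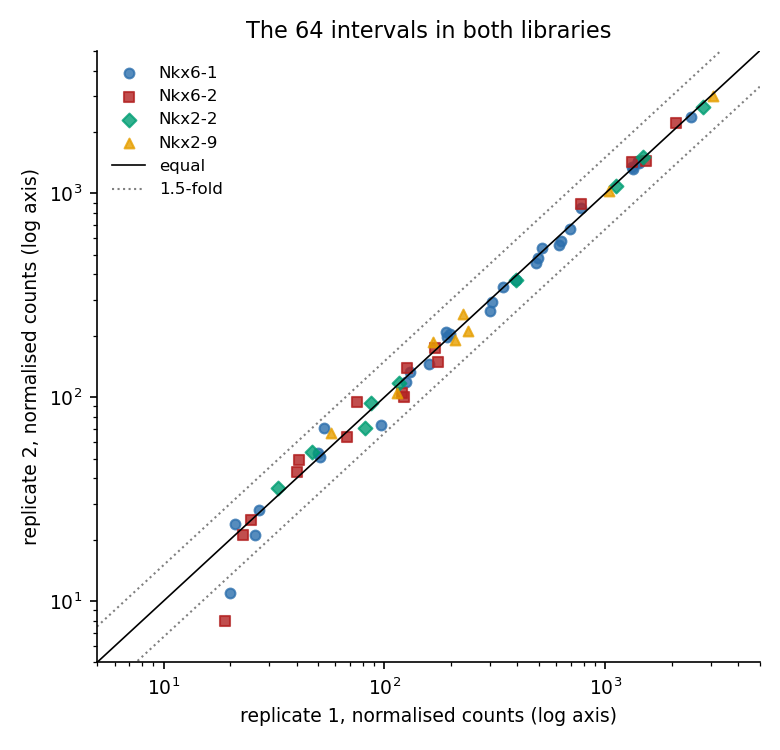
Normalised counts of the 64 intervals in replicate 1 and replicate 2 on log axes, coloured by gene, with the line of equal counts and dotted lines at 1.5-fold. The points lie along the line, and the 2 outside the dotted lines are among the weakest.

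Over the central 300 bases of all 64 intervals, CATTGT was found in 18 and CAGCTG in 18 (28.1% each), against 21.3% and 22.2% of all intervals. TTAATTA was found in 5 (7.81% against 4.10%) and CACTTNA in 8 (12.5% against 14.9%). TGTTTAC occurred in 2 and CATATG in 4, against 4.38% and 5.08% of all intervals. The GLI motif was found in 2 of the 64, against 1.03% of all intervals, and these were the interval over the Nkx2-2 coding start and the densest distal interval of Nkx2-9. No GLI match was found in the windows of the Nkx6-1 and Nkx6-2 intervals. Searched over whole intervals, which were longer at these genes than elsewhere, the counts rose to 28 for CACTTNA, 30 each for CATTGT and CAGCTG, 11 for TTAATTA, 8 for TGTTTAC, 9 for CATATG and 3 for the GLI motif. For CACTTNA (43.8% against 27.8%) and TGTTTAC (12.5% against 8.72%) the share was then above that of all intervals, where it had been below in the central windows. The other motifs were above it in both searches. Over whole intervals CATTGT had 46.9% against 34.3%, CAGCTG 46.9% against 38.2% and TTAATTA 17.2% against 7.80%. CATATG had 14.1% against 9.97%, and the GLI motif 4.69% against 2.34%. These shares rest on few intervals and carry no test.

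Mappability was examined because strong intervals can collect reads from copies elsewhere. Outside repeat-masked bases, 0 of the 64 intervals had a match of at least 100 bases at 90% identity at another place in the assembly. The median share of repeat-masked bases was 7.90% in the 64 and 8.55% in all intervals. Only 1 interval, 23.2 kb downstream of Nkx2-2, was over 50% repeat, with 92.6% and a density of 216 ± 11.7 (SD, n = 2).

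Genes that act with or against these factors were examined by the same measure. Of 12 Shh pathway genes 11 had a TSS interval, where 61.5% of all coding genes did, and their median density was 1244, from Boc (831), a co-receptor, to Sufu (1574), an inhibitor of the GLI proteins. Of the 4 TLE co-repressor genes 3 had one, from Tle3 (729) to Tle4 (1618). Of 8 factors of more dorsal progenitors 7 had one, from Pax6 (187) to Irx5 (2135). The Pax6 gene record, like that of Nkx2-2, starts away from its coding transcripts, where the density was 613.

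Of the other ventral factors, Olig1 had 760 and Olig2 had 946 ± 23.2 (SD, n = 2), and Foxa2 had no interval at its gene-record TSS and 584 at its coding start. Of 10 other NK genes, which are used mainly in other tissues, 6 had a TSS interval, with a median of 510 and a range from Nkx1-2 (276) to Nkx2-3 (1260). Promoters of the 4 genes were thus spread over the range of these groups, with Nkx6-1 above all 6 of the other NK genes. Median summed distal counts were 6820 for the other ventral factors, 5959 for the TLE genes and 4719 for the more dorsal factors. They were 3986 for the Shh pathway and 960 for the other NK genes, against 145 over all coding genes. The 4 genes had 13742 (Nkx6-1), 5186 (Nkx6-2), 2248 (Nkx2-2) and 2050 (Nkx2-9). High distal sums were thus not particular to the 4 genes.

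The coding genes most like each of the 4 were found by their distance on promoter density, number of intervals and summed distal counts, each log-transformed and scaled over all genes. For Nkx6-1 these were Maml3, Frmd4b and Nuak1, at distances of 0.0785, 0.156 and 0.18 over 3 measures from the 2 libraries. For Nkx6-2 they were Prdm16 (0.0674), Cacna2d1 (0.0704) and Vangl1 (0.0789). For Nkx2-2 they were Rpusd4 (0.0232), Prrc2b (0.0605) and Cdkn1a (0.0784), and for Nkx2-9 Pde5a (0.0419), Rai1 (0.0714) and Asb13 (0.0716). Promoter density here was that of the gene record. The coding-start interval of Nkx2-2, with 2720 normalised counts, thus entered only the number of intervals. None of the 4 genes was among the 3 closest to another. With only 3 taken from 21951 coding genes, this does not show how alike the 4 loci are.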

How the data were processed

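ATAC-seq was performed by the authors on 2 libraries of 1 group. The deposited values are raw counts of fragments over 119502 consensus intervals, made per the file headers with featureCounts 2.0.1 on read pairs, each fragment being counted in every interval of which it overlapped a fraction of 0.2 of its length. The study's methods describe alignment to mm10 and MACS peaks at a false discovery rate of 1e-05, with consensus peaks required in 2 replicates, and the table has columns for 5 libraries. Of these, 3 were from libraries outside the series. They took part in defining the intervals, and so their lengths, while their counts entered no step.

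Counts were divided by size factors of DESeq2 (1.42.0), 0.9996 and 1.0004, and by interval length in kb for densities. Intervals were assigned with GENCODE M21 by the distance of their nearest base to the TSS of the gene record. edgeR (4.0.16) TMM factors and total counts were alternatives, beside other TSS definitions, the midpoint, counts per interval, filters on low counts and leaving out each replicate. The TSS of protein-coding transcripts was added after the Nkx2-2 values were seen. The exact binomial test (scipy 1.17.1) was tested on simulated data. Sequences were read from the GRCm38 assembly, of which mm10 is the other name, with pysam 0.24.0, and matches were sought with BLAST+ 2.17.0. The RefSeq promoter table, which held all 4 genes, gave the promoter background.

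The members, lists, motifs and rules were chosen with earlier results of these data known. Named intervals are, for each gene, the TSS intervals, the 3 densest distal intervals, the farthest, and the one with the largest library ratio among means over 100. From the lists, the genes named are the lowest and highest with a TSS interval. Flanking genes, marker genes without an interval and those marked in the text were added to this rule. The homeodomain proteins were not analysed here. An item of the p3 and floor plate list is not reported here. Fragments carried no molecular identifiers, so that precision from counts covers counting error only. The p-values set the difference between these libraries against counting error alone, and that difference may be technical.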

Additional observations from a re-analysis of the deposited data

How the results depend on the processing

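No paired analysis was possible because both libraries were of the same group. Without division by length, the median of the distal intervals was 174 normalised counts per interval, and the promoters had 2409 (Nkx6-1), 1478 (Nkx6-2), 1106 (Nkx2-2) and 3043 (Nkx2-9), a different unit in which Nkx2-9 led. The Nkx2-2 promoter density of 484 became 711 over the starts of every annotated transcript and 879 over those of protein-coding transcripts. The median distal density ranged from 241 to 267 when 1 replicate was left out. The shift to 267, without replicate 2, was larger than the SD of 18.2 between the libraries. With every transcript start, the intervals of the 4 genes numbered 55 in place of 64. Of 114 alternatives for single loci, motifs and percentiles, 89 were counted as unchanged and 25 as moved. The 89 do not measure robustness. Leaving out 1 of 2 replicates shifts a mean by less than their SD, so such alternatives for means could hardly move. Numbers of intervals and of motif matches have no SD between replicates to be set against. TMM factors, total counts, the midpoint and a minimum mean of 10, where they applied, moved none of the densities and counts above beyond the spread between replicates. With total counts the median log2 ratio of the libraries over the 64 intervals moved from -0.0067 to 0.0035. The number of weak intervals is limited by depth: the lowest had 27 counts over both libraries. Leaving out 1 library leaves 1 value, with no test.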
